A study of Homo sapiens with 3 samples.

Results

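Small noncoding RNA genes were examined among the RNA editing clusters of the RBFOX2-APOBEC1 STAMP experiment. A cluster was taken as a member when any of the gene names in its annotation began with SNORA, SNORD, SCARNA, RNU, RN7S, RNY, Y_RNA, snoU, VTRNA or MIR followed by a digit, or was a bare U number, 7SK, RMRP, RPPH1 or TERC. In all, 416 of 40843 clusters over 3 replicates carried such a name, and these clusters named 191 of the 9904 gene symbols in the series. Replicates 1, 2 and 3 held 142 of 14295, 162 of 15181 and 112 of 11367 clusters, which are shares of 0.993%, 1.07% and 0.985% (Wilson 95% intervals 0.843 to 1.17%, 0.916 to 1.24% and 0.820 to 1.18%). The mean was 139 ± 25.2 clusters per replicate (SD, n = 3), and no member was set aside.

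The samples were 3 replicates of 1 condition. HEK293T cells (HEK293XT, a transformed human embryonic kidney line with a wild-type genotype in the labels) expressed a doxycycline-induced fusion of the splicing regulator RBFOX2 to the cytidine deaminase APOBEC1 for 72 h. The labels describe the treatment as a transient transfection, whereas the growth protocol speaks of stable lines. The deaminase converts C to U in RNA that the fusion touches, and FLARE joins windows enriched for such edits into clusters. No sample without the fusion or with APOBEC1 alone was analysed here, so the background of the same measurement is not known. The molecule was polyA RNA in the labels, and the kit is given as stranded mRNA or total RNA.

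Box C/D and box H/ACA small nucleolar RNAs (snoRNAs) guide methylation and pseudouridylation of other RNAs, and most of them are cut out of the introns of host genes, many of which encode ribosomal proteins and translation factors. MicroRNAs are released from hairpins that often lie in host transcripts as well. Spliceosomal snRNAs, 7SK and the 7SL RNA of the signal recognition particle have many pseudogene copies scattered through introns. Most of these RNAs carry no poly(A) tail in their mature form.

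The members were almost never clusters of a small RNA alone. A further gene name accompanied the small RNA name in 141 of 142, 157 of 162 and 108 of 112 clusters (99.3%, 96.9% and 96.4%), and 236 different names of other genes appeared there. The annotation gives all genes that share an exon or intron interval, so the position of a cluster inside that interval relative to the small RNA is not stated. Exonic and intronic below refer to these labels, which do not state whether a cluster lies in the spliced transcript. Only 1, 5 and 4 clusters of replicates 1, 2 and 3 named small RNA genes and nothing else.

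Lengths, which need no genome coordinates, show that many clusters cannot lie in the small RNA. Of the 191 symbols, 178 matched a RefSeq symbol of GRCh38.p14, and the lengths of these genes were set against the spread of the clusters in hg19. Among 95 matched names with at least 2 distinct clusters on a chromosome, the clusters of 86 spanned more bases than the whole gene. Wherever a small RNA of the RefSeq length is placed within its interval, at least 104 of the 372 clusters whose small RNAs all have a length lie outside it, and at most 268 can touch it. The label "small noncoding RNA" is therefore treated below as a description of the annotation, and each cluster is given with its host gene.

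Sequences are shown for the microRNAs whose loci recurred in all 3 replicates and whose mature form the sequence table holds. MIR636 and MIR3607 recurred too and are named only. The sequences are the RefSeq mature forms of GRCh38.p14, written from 5′ to 3′ with the seed, bases 2 to 8, in capitals.
hsa-miR-21-5p: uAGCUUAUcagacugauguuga
hsa-miR-7-5p: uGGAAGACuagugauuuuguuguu
hsa-miR-7-1-3p: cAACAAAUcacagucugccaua
hsa-miR-630: aGUAUUCUguaccagggaaggu
hsa-miR-2277-3p: uGACAGCGcccugccuggcuc
hsa-miR-2277-5p: aGCGCGGGcugagcgcugccaguc
hsa-miR-1304-5p: uUUGAGGCuacagugagaugug
No seed was shared among these 7 mature forms. The whole hairpins of MIR21 and MIR630 are added to show how short these RNAs are next to the spread of their clusters. The mature form listed above is in capitals.
MIR21: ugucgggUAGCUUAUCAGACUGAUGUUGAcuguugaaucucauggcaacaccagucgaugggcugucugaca
MIR630: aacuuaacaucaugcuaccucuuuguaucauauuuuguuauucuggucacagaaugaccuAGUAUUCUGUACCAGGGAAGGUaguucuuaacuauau
The MIR21 hairpin has 72 bases, of which 15 are C, and the MIR630 hairpin has 97 bases, of which 18 are C. Of the 61 microRNA symbols, 56 were in the sequence table, and for 54 of these the chromosome and strand were those of their clusters. MIR3654 lies on another chromosome in RefSeq than its cluster in EEF1G, and MIR4519 on the opposite strand. The pentamer GCAUG, the core of the motif that RBFOX proteins bind, was searched on the given strand in the hairpins. It stood in 3 of the 49 hairpins of these genes (6.12%) and in 113 of all 1562 human hairpins of the table (7.23%).

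By class, microRNA names were the most frequent. Clusters with a microRNA name numbered 59, 69 and 56 in replicates 1, 2 and 3 over 61 symbols, those with a box C/D snoRNA name 39, 47 and 34 over 42 symbols, and those with a box H/ACA snoRNA name 36, 53 and 28 over 36 symbols. Names of spliceosomal snRNAs and of U7 snRNA copies, 26 of 29 of them RefSeq pseudogenes, stood on 19, 15 and 8 clusters and are called snRNA names below. Names of 7SL copies stood on 11, 10 and 6 clusters and names of 7SK copies on 2, 4 and 1. SCARNA12 (with PHB2) and RPPH1 had 1 cluster each. The rule found no Y RNA, vault RNA, RMRP or TERC name. An intronic cluster of replicate 1 that was kept for its snoU13 name (chr17:33424857-33424901, minus strand) also carried the name Vault, a spelling outside the rule, with 2 edited of 105 covered C bases (1.90%). A cluster can carry names of several classes, up to 6 small RNAs at once, so these counts overlap. Of the 191 symbols, 40 had clusters in all 3 replicates, 51 in 2 and 100 in 1.

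The classes differed in where their clusters lay and how deeply they were covered. Of the clusters with box C/D and box H/ACA names, 18.3% and 18.8% were labelled intron only, against 26.1% for microRNAs, 76.2% for snRNAs, 74.1% for 7SL and 85.7% for 7SK (3 replicates together). The median of the mean read depth was 154, 156 and 162 reads in replicates 1, 2 and 3 for box C/D names and 183, 239 and 257 for box H/ACA names. It was 35.3, 29.2 and 22.8 for microRNA names and 16.1, 21.1 and 24.0 for snRNA names. The edit fraction, edited C bases as a share of the C bases that reads covered, ran the other way. Its median was 0.843%, 1.14% and 0.853% for box H/ACA names and 3.17%, 5.13% and 4.24% for snRNA names, and the snoRNA and snRNA values did not overlap.

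Intronic annotation set the members apart from the rest of the series. Clusters labelled intron only made up 47, 52 and 24 of the members, or 33.1%, 32.1% and 21.4%, against 1.86%, 2.00% and 1.50% of all other clusters. The difference was 27.1 ± 6.23 percentage points (SD, n = 3), far above the spread between replicates, and positive in 3 of 3 replicates. The exact two-sided permutation test over 3 replicates gave p = 0.25, which is the smallest value that 3 replicates allow, so no comparison of this kind can pass 0.05. Members carry several gene names by nature of their annotation, and other clusters with at least 2 gene names were intron only in 14.3%, 12.4% and 11.7%. Against these clusters the difference was 16.1 ± 5.49 percentage points (exact permutation p = 0.25). The members held 123 of the 856 intron-only clusters of the series. The intron label and the small RNA names come from the same annotation, so these differences are not read as differences in editing.

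**Figure D1:**
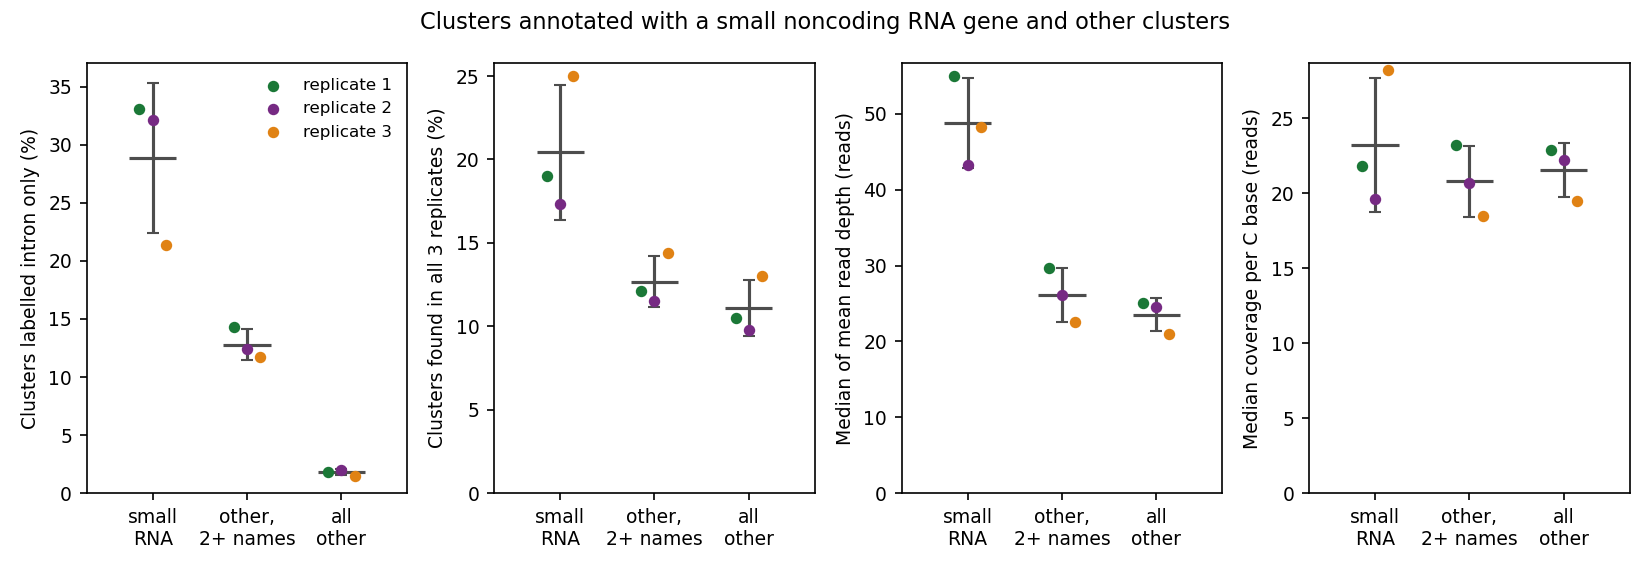
Share of clusters labelled intron only, share found in all 3 replicates, median of the mean read depth and median coverage per C base, for small noncoding RNA clusters, other clusters with at least 2 gene names and all other clusters. Points are replicates and bars the mean ± SD (n = 3); the first 3 measures do not overlap between small RNA clusters and the others, whereas coverage per C base does.

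Host genes of the translation machinery were frequent. A ribosomal protein gene was among the names of 22, 21 and 14 members (mean share 13.7% ± 1.61) and of 0.719% ± 0.0241 of all other clusters, a difference of 12.9 ± 1.63 percentage points (SD, n = 3). Host and small RNA names come from the same annotation, and many snoRNA genes lie in ribosomal protein genes. The difference therefore describes how the members were named and is not read as a result about editing. In all, 57 member clusters named 17 ribosomal protein genes. This class of hosts was counted after the values had been seen.

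Read depth was higher at the members, but only by 1 of 2 measures of it. The median of the mean read depth that the files give was 55.0, 43.2 and 48.2 reads in the members and 25.0, 24.6 and 21.0 reads in all other clusters, a difference of 25.2 ± 5.93 reads (SD, n = 3, exact permutation p = 0.25). Coverage per C base, obtained by dividing covered C bases by the number of C positions in a cluster, had medians of 21.8, 19.6 and 28.2 reads in the members and 22.9, 22.2 and 19.5 reads in the others. That difference was 1.68 ± 6.11 reads (exact permutation p = 1.00), within the spread between replicates, and it was positive only in replicate 3. In exonic clusters alone both measures were higher in the members, by 45.9 ± 19.9 reads of mean depth and by 17.3 ± 4.31 reads of coverage per C base (exact permutation p = 0.25 for each).

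Mean depth and coverage per C base disagreed strongly in a subset of the members. The mean depth was at least 5 times the coverage per C base in 21, 27 and 11 members (14.8%, 16.7% and 9.82%) and in 1.92%, 2.29% and 1.55% of all other clusters. Among intron-only clusters the members were lower in 3 of 3 replicates, with 25.5%, 30.8% and 20.8% against 30.8%, 38.9% and 23.1%. They were higher than other intron-only clusters with at least 2 gene names, which had 19.6%, 16.2% and 15.5%. Exonic members had 9.47%, 10.1% and 6.90%, and other exonic clusters 1.38%, 1.54% and 1.22%. Of the 59 members at or above this ratio 20 named a ribosomal protein gene, among them the 10 with the highest ratio. In RPL32 with SNORA7A, an intronic cluster of replicate 1 had a mean depth of 7066 reads and a coverage of 11.1 reads per C base, and another of replicate 2 had 6716 and 8.73. In RPS3A with SNORD73A, an intronic cluster of replicate 1 had 5297 and 3.50. An exonic cluster of replicate 2 in RPL5 with SNORD21 had 3640 and 4.60. The edit fraction of these 4 clusters, 1.53% to 4.76%, rests on 21 to 131 covered C bases with 1 or 2 edits. What the mean depth counts there beyond the covered C bases was not tested.

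**Figure D2:**
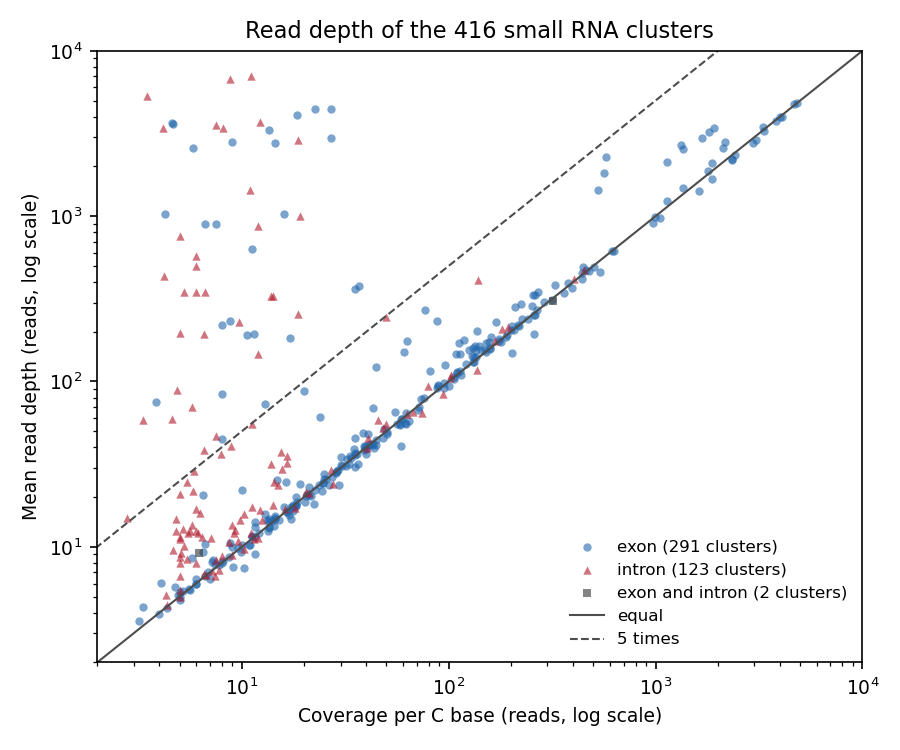
Mean read depth against coverage per C base for the 416 small noncoding RNA clusters of 3 replicates, both on log scales, with exonic, intronic and mixed clusters marked. Most points lie on the line of equality, and 59 clusters lie at or above the dashed line, where the mean depth is at least 5 times the coverage per C base.

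The median edit fraction of the members differed from that of the other clusters by less than the spread between replicates. It was 1.52%, 1.77% and 1.64% in the members and 1.64%, 1.65% and 1.80% in all other clusters, a difference of -0.0576 ± 0.152 percentage points (SD, n = 3, exact permutation p = 0.50), lower in replicates 1 and 3 and higher in replicate 2. Summed over clusters, edited over covered C bases gave 0.735%, 0.689% and 0.697% in the members and 0.943%, 0.941% and 1.01% in the others. A few deep hosts weigh heavily in this sum. RPL23 with SNORA21 held 78816, 121108 and 96340 of the members' 235947, 344314 and 254284 covered C bases. TPT1 with SNORA31 held 33392, 31226 and 12649. The difference between the summed fractions of members and others was -0.257 ± 0.0512 percentage points (exact permutation p = 0.25) and negative in 3 of 3 replicates. Intron-only clusters went the other way in 3 of 3 replicates, with summed fractions of 1.57%, 1.46% and 1.95% in the members. The other intron-only clusters had 1.15%, 0.557% and 0.589%, a difference of 0.898 ± 0.473 percentage points (exact permutation p = 0.25). The median of intron-only clusters was lower in the members in 3 of 3 replicates, with a difference of -0.607 ± 0.534 percentage points (exact permutation p = 0.25). In exonic clusters the members were lower in every replicate, with 1.14%, 1.34% and 1.41% against 1.61%, 1.63% and 1.79%, a difference of -0.379 ± 0.0902 percentage points (exact permutation p = 0.25). Depth moved with this: among all other clusters the median edit fraction was 5.03% ± 0.134 under a mean depth of 10 reads and 0.782% ± 0.00868 from 50 reads on (SD, n = 3), and exonic members were the deeper clusters. The depth classes given next hold exonic and intronic clusters together, so the part of depth in the exonic difference was not tested.

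For the deepest clusters the direction depended on the measure of depth. Where the mean depth reached 50 reads or more, members had medians of 0.840%, 1.05% and 0.905% and the others 0.773%, 0.790% and 0.782% (exact permutation p = 0.25). Where coverage per C base reached 50 or more, members had 0.649%, 0.638% and 0.735% and the others 0.734%, 0.750% and 0.751% (exact permutation p = 0.25). The members were thus higher in 3 of 3 replicates by the first grouping and lower in 3 of 3 by the second. From 10 to 20 reads the members were higher in 3 of 3 replicates by both, with 2.47%, 2.94% and 2.61% against 2.41%, 2.30% and 2.25% by mean depth and 2.41%, 2.66% and 2.31% against 2.30%, 2.20% and 2.19% by coverage per C base (exact permutation p = 0.25 for each). From 30 to 40 reads they were higher in 3 of 3 by mean depth, whereas by coverage per C base, and in the remaining classes by both measures, the replicates differed in direction.

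Clusters of the members recurred more often across replicates. A cluster was called recurrent when clusters in both remaining replicates shared 1 base or more with it on its strand, which held for 27, 28 and 28 members (19.0%, 17.3% and 25.0%). Over all clusters of the series the shares were 10.6%, 9.86% and 13.1%. Against all other clusters the difference was 9.35 ± 2.36 percentage points (SD, n = 3, exact permutation p = 0.25), and against other clusters with at least 2 gene names it was 7.77 ± 2.48 percentage points. Exonic members recurred in 25.3%, 22.9% and 28.7%, against a mean of 11.1% ± 1.66 (SD, n = 3) in other exonic clusters. Intronic members recurred in 6.38%, 5.77% and 8.33%, and other intronic clusters in 6.84%, 6.31% and 11.8%. Other intronic clusters with at least 2 gene names recurred more, in a mean of 18.7% ± 4.68 (SD, n = 3, exact permutation p = 0.25, higher in 3 of 3 replicates).

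At a like number of edited reads the ranges of recurrence of members and other clusters overlapped. Among clusters with at least 11 edited reads, 17 of 19, 18 of 24 and 15 of 20 members recurred (89.5%, 75.0% and 75.0%), as did 80.2%, 76.0% and 83.8% of the others, a mean difference of -0.178 percentage points (exact permutation p = 1.00). With 3 to 10 edited reads the shares were 17.0%, 19.0% and 27.8% in the members and 16.3%, 16.2% and 24.1% in the others (exact permutation p = 0.25). In this class the members were higher in 3 of 3 replicates, by a mean of 2.43 percentage points, whereas in the remaining classes the replicates differed in direction. With 1 edited read they were 3.03%, 0% and 3.45% against 2.02%, 1.91% and 2.79%, where 0 of 47 members in replicate 2 allows a share of up to 6.38%. Members more often had many edited reads, and only 23.2%, 29.0% and 25.9% of them rested on 1 edited read, against 28.0%, 31.1% and 33.1% of the others.

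**Figure D3:**
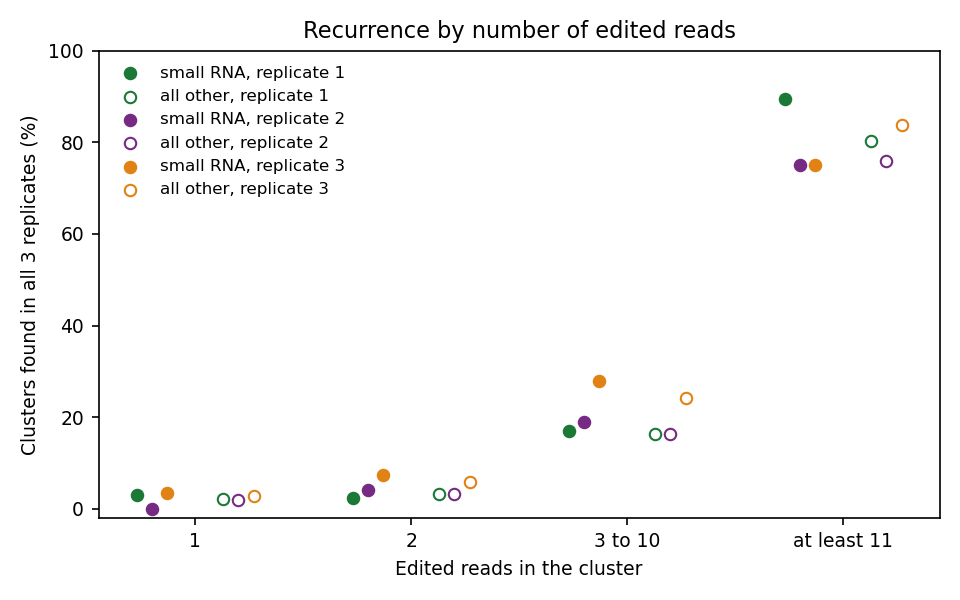
Share of clusters found in all 3 replicates by the number of edited reads in the cluster, for small noncoding RNA clusters (filled) and all other clusters (open), with 1 point per replicate. The shares rise from at most 3.45% at 1 edited read to at least 75.0% at 11 or more, and the ranges of filled and open points overlap in each class.

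When the members of the 3 replicates were merged by overlap they formed 322 loci, of which 261 were seen in 1 replicate, 33 in 2 and 28 in all 3. In 26 of the 28 every pair of replicates overlapped, and in the remaining 2, in EIF4A2 and ARIH1, replicates 1 and 3 met only through the longer cluster of replicate 2. The 28 loci named 30 small RNA genes, and 25 of the loci carried exon labels only. Mean edit fractions ran from 0.277% to 2.87% with a median of 0.926%. The highest replicate exceeded the lowest by a median of 1.59 times, and in 24 of 28 loci the Wilson 95% intervals of all replicates overlapped. These intervals cover counting error only and treat edited bases as independent. Several edits can stand on 1 read, so the intervals can be too narrow. The value of each replicate comes from its own clusters at a locus, so differences between replicates can compare different bases. Across these 28 loci, which share hosts, Spearman's rho of the edit fraction between pairs of replicates was 0.771, 0.752 and 0.777, given as a description.

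**Figure D4:**
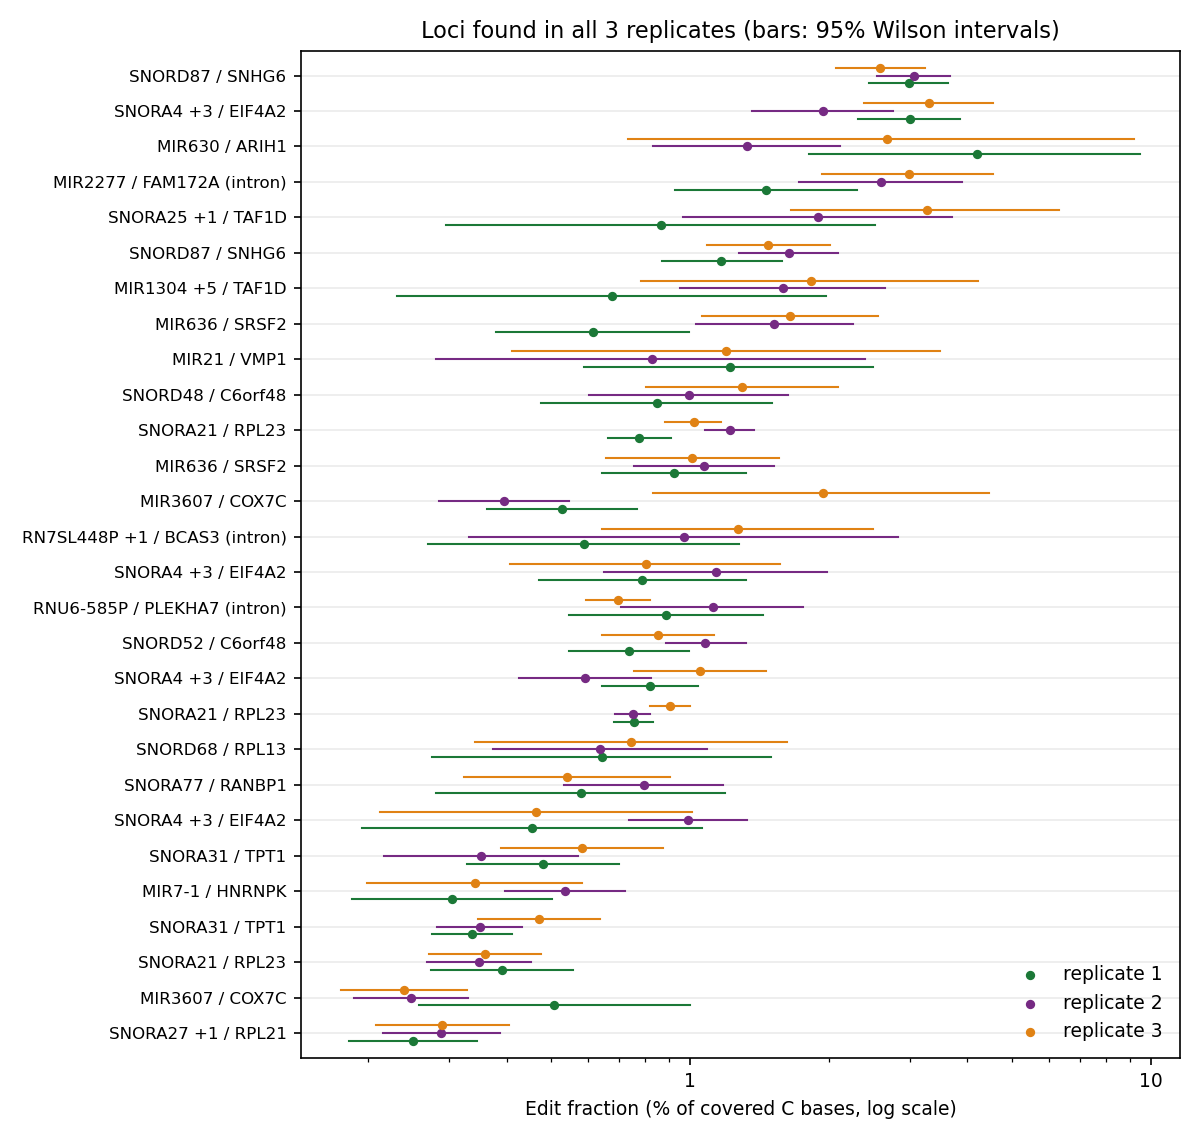
Edit fraction (percent of covered C bases, log scale) of the 28 loci found in all 3 replicates, by replicate, with Wilson 95% intervals. Each value is taken over the clusters of that replicate at the locus. Each row gives a small RNA name, the number of further small RNA names and a host gene; the loci run from SNORA27 in RPL21 (mean 0.277%) to SNORD87 in SNHG6 (mean 2.87%).

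RPL23, a protein of the large ribosomal subunit, with the box H/ACA snoRNA SNORA21, held more edited reads than any other member. Its clusters had 488, 710 and 578 edited reads in replicates 1, 2 and 3, which is 40.7%, 44.3% and 46.1% of the edited reads of all members. All 15 clusters carried the same exon label of RPL23 and SNORA21 and spanned 5145 bases, against a RefSeq length of 133 bases for SNORA21, so at least 12 of the 15 lie outside the snoRNA. Which of the clusters lie in the spliced RPL23 mRNA was not tested. The locus with the most edited bases was chr17:37008904-37008963 on the minus strand (hg19). It had 387 edited of 51280 covered C bases in replicate 1, 506 of 67313 in replicate 2 and 397 of 43854 in replicate 3, or 0.755%, 0.752% and 0.905%. The Wilson interval of replicate 3 lay above that of replicate 2. The next locus on the chromosome, chr17:37009249-37009308, had a higher edit fraction in every replicate, 0.776%, 1.22% and 1.02%. Its interval of replicate 1 lay below that of replicate 2. The locus chr17:37006609-37006653 had 0.391%, 0.348% and 0.359%, which overlapped, at mean depths of 3758, 3987 and 3258 reads. This locus lay below the other two in every replicate.

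EIF4A2, an RNA helicase of translation initiation, hosts SNORA4, SNORA63, SNORA81 and SNORD2, and all 4 names stood on the same 25 clusters (8, 11 and 6 per replicate). These spanned 5445 bases, against 519 bases for the 4 snoRNAs together. Of its 4 recurrent loci, chr3:186507258-186507407 on the plus strand had the highest edit fraction, 3.00%, 1.94% and 3.30%, from 57, 30 and 35 edited bases. The neighbouring loci had 0.819%, 0.592% and 1.05% (chr3:186506943-186507212) and 0.787%, 1.14% and 0.802% (chr3:186507543-186507587), below the peak in every replicate. The fourth, chr3:186504918-186505067, had 0.455%, 0.992% and 0.463%. Edited reads in the peak locus carried 2.38, 1.88 and 2.69 edited bases each.

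**Figure D5:**
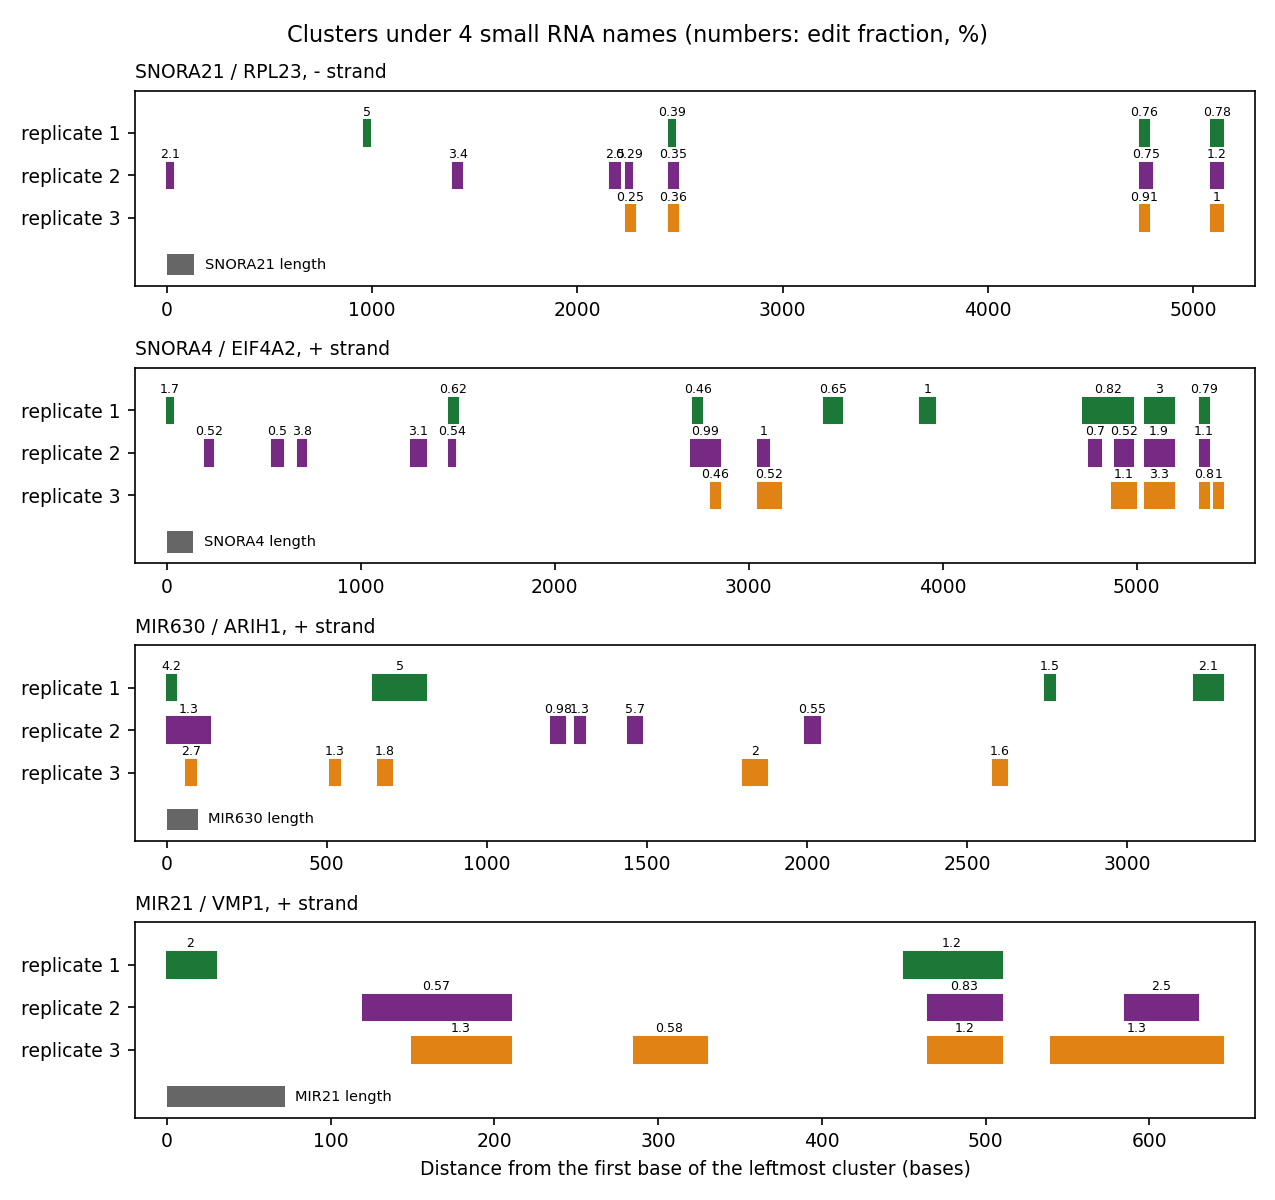
Clusters under the names SNORA21 (RPL23), SNORA4 (EIF4A2), MIR630 (ARIH1) and MIR21 (VMP1) by replicate, drawn to scale along the distance in bases from the leftmost cluster, with the edit fraction in percent above each. The grey bar gives the RefSeq length of the small RNA, not its position; the clusters spread over 5145, 5445, 3300 and 645 bases.

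SNORD87, a box C/D snoRNA of the noncoding host SNHG6, shared its exon label with the locus of the highest mean edit fraction. The locus chr8:67834837-67834941 on the minus strand had 93 edited of 3123 covered C bases, 112 of 3666 and 76 of 2935, or 2.98%, 3.06% and 2.59% (mean 2.87% ± 0.250, SD, n = 3). The second locus of this exon, chr8:67834537-67834641, had 1.17%, 1.64% and 1.48%, lower in every replicate and without overlap of the groups. Together the clusters had 65, 85 and 61 edited reads. The 6 clusters spanned 405 bases against 76 for SNORD87, so at least 3 of them lie outside it.

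Further snoRNA hosts with recurrent loci were TPT1, RPL21 and RPL13. TPT1, a translationally controlled growth protein, with SNORA31 had 0.336%, 0.350% and 0.471% at chr13:45911369-45911458 and 0.480%, 0.352% and 0.583% at chr13:45911504-45911593, both on the minus strand. The ribosomal protein gene RPL21 with SNORA27 and SNORD102 had the lowest mean, 0.251%, 0.289% and 0.290% at chr13:27829457-27829501, where mean depth was 2770, 2888 and 2211 reads. RPL13 with SNORD68 had 0.644%, 0.638% and 0.746% at chr16:89629631-89629705. The intervals of the replicates overlapped at each of these 4 loci.

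The intervals of the replicates also overlapped in C6orf48, RANBP1 and TAF1D. C6orf48 had 0.849%, 0.994% and 1.30% with SNORD48 (chr6:31803176-31803220) and 0.738%, 1.08% and 0.854% with SNORD52 (chr6:31804996-31805190). RANBP1, a regulator of the RAN GTPase, with SNORA77 had 0.580%, 0.794% and 0.541% at chr22:20114637-20114726. TAF1D, a subunit of the RNA polymerase I selectivity factor, had 0.867%, 1.90% and 3.27% with SNORA25 and SNORA32 (chr11:93463430-93463519). Its second locus, with MIR1304, SNORA1, SNORA18, SNORA40, SNORA8 and SNORD5 among the names (chr11:93469330-93469464), had 0.677%, 1.59% and 1.83%. Both TAF1D loci were lowest in replicate 1, where 3 edited bases were seen in each.

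SNORA73, the remaining name among those with the most edited reads, was not found at 1 place in all replicates. Its 8 clusters in RPS7, a protein of the small ribosomal subunit, had 8, 91 and 38 edited reads. The deepest, at chr2:3627818-3627862 in replicate 2, had 72 edited of 26436 covered C bases (0.272%), and an overlapping cluster of replicate 3 had 27 of 8442 (0.320%), whereas replicate 1 had none there. SNORA73 is a family name without a RefSeq entry of its own, so the copy is uncertain.

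MicroRNA names recurred at loci of 7 host genes, and 1 of these names is no longer that of a microRNA. COX7C, a subunit of cytochrome c oxidase, with MIR3607, for which RefSeq gives the snoRNA SNORD138, had 0.508%, 0.248% and 0.240% at chr5:85915261-85915335. At chr5:85916506-85916595 it had 0.528%, 0.395% and 1.94%. There replicate 3 rested on 5 edited of 258 covered C bases and stood 4.90 times above replicate 2, with Wilson intervals that did not overlap. Replicate 1 had 5110 covered C bases at this locus, and the clusters of the replicates need not cover the same bases. SRSF2, a serine- and arginine-rich splicing factor, with MIR636 had 0.615%, 1.52% and 1.65% at chr17:74730273-74730377, with the Wilson interval of replicate 1 apart from the others. Its second locus, chr17:74730993-74731157, had 0.924%, 1.07% and 1.01%. The 13 clusters of this exon spanned 1470 bases against 99 for MIR636.

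HNRNPK, an hnRNP that binds C-rich RNA, hosts MIR7-1, whose mature form miR-7-5p is shown above. The locus chr9:86585057-86585146 on the minus strand had 15 edited of 4920 covered C bases, 42 of 7830 and 13 of 3814, or 0.305%, 0.536% and 0.341%. VMP1, a membrane protein of autophagy, shares an exon label with MIR21, and the locus chr17:57917692-57917751 had 1.22%, 0.826% and 1.20% from 7, 3 and 3 edited bases. Its 9 clusters spread over 645 bases, against the 72 bases of the hairpin printed above, so at least 5 lie outside it. ARIH1, a ubiquitin ligase, with MIR630 had 4.20%, 1.33% and 2.67% at chr15:72875550-72875684 from 5, 17 and 2 edited bases. Its 14 clusters spread over 3300 bases, and at least 11 of them lie outside the 97-base hairpin.

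Of the 28 loci 3 carried an intron label. FAM172A with MIR2277 had 1.46%, 2.60% and 2.98% at chr5:93018231-93018335 on the minus strand, from 18, 22 and 20 edited bases at mean depths of 117, 83.9 and 64.4 reads. The interval also names POU5F2, NPM1P27 and RP11-549J18.1. With an exonic cluster of replicate 1 the clusters under the name MIR2277 spread over 63720 bases, against 93 for the hairpin. BCAS3 with the 7SL copies RN7SL448P and RN7SL606P had 0.588%, 0.971% and 1.27% at chr17:58929137-58929196. HMGN1P28, KRT18P61, AC005884.1, AC079005.1 and RP11-332H18.3 stood on the same interval, as did AC116533.3 and RP11-466H18.1 on the interval given next. In which of the named genes these clusters lie is not stated. PLEKHA7 with the U6 copy RNU6-585P had 0.887%, 1.12% and 0.699% at chr11:16996201-16996560. There replicate 3 gave a single cluster of 360 bases with 148 edited bases, the longest of all members, whereas replicates 1 and 2 had 16 and 18 edited bases in shorter clusters.

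The clusters that named small RNA genes alone were few. SNORD3A, a gene of the U3 snoRNA that acts in the first cuts of the ribosomal RNA precursor, had a cluster at the same 45 bases, chr17:19091375-19091419 on the plus strand, in replicates 1 and 2. It held 3 edited of 224 covered C bases (1.34%) and 2 of 144 (1.39%), at mean depths of 25.6 and 17.4 reads. In replicate 3 the cluster lay instead in SNORD3C, at chr17:19093474-19093518 on the minus strand, with 3 of 72 (4.17%). SNORD3A and SNORD3C are near-identical copies with the same RefSeq length of 217 bases, so their reads cannot be told apart with certainty. RPPH1, the RNA of RNase P, had 2 edited of 124 covered C bases (1.61%) in replicate 2 and no cluster in the other replicates.

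The remaining clusters without another gene name were each seen in 1 replicate. SNORD78 in replicate 2 had 2 edited of 56 covered C bases (3.57%) at a mean depth of 637 reads and a coverage of 11.2 reads per C base. MIR4426 in replicate 3 had 5 of 45 (11.1%) from 6 reads. MIR4519 in replicate 2 had 6 of 160 (3.75%), all on 1 edited read, and the cluster of 75 bases was longer than the 58 bases RefSeq gives for that gene and stood on the opposite strand. The host transcripts MIR4458HG (1 cluster, replicate 2) and MIR503HG (2 clusters, replicate 3) met the naming rule but are long noncoding RNAs. None of these 10 clusters was found in all 3 replicates. The U8 gene SNORD118, which shares its exon with TMEM107, had 2 of 123 (1.63%) in replicate 3.

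Averaged over clusters, the ratio of edited bases to edited reads was slightly lower in the members. The mean of this ratio was 1.66, 1.89 and 1.79 in the members and 1.99, 2.05 and 2.09 in all other clusters. The difference was -0.268 ± 0.0952 (SD, n = 3, exact permutation p = 0.25), lower in 3 of 3 replicates. Each cluster counted once, whatever its number of edited reads, so this is not a mean over reads. Median cluster length was 45 bases and median C count 9 in both. The members held 1735, 2374 and 1772 edited bases, or 1.71%, 2.13% and 2.30% of those of the series.

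Genes for the protein partners of small RNAs were compared by presence of clusters, from lists of 44 names. Of these, 33 had a cluster in at least 1 replicate, 15 in all 3, and 7 had a cluster found at the same place in all 3. Of the names seen, these are 45.5% and 21.2%, while of all 9904 gene names with a cluster 37.9% had clusters in all replicates and 12.9% had a cluster found in all of them. How many genes had no cluster is not known, so 33 of 44 has no such background, and nothing particular to the lists is read from these shares. Of the 6 names of signal recognition particle proteins, which bind 7SL, 6 were seen and 4 in all replicates. SRP9 had 122, 106 and 57 edited bases (0.731%, 0.915% and 0.904% pooled over its clusters) and SRP14 had 101, 92 and 81 (0.783%, 0.733% and 0.840%). Of 10 names of snoRNA and scaRNA proteins 7 were seen and 2 in all replicates. These were NOP58, a core box C/D protein, with 52, 65 and 54 edited bases, and NHP2L1, which binds the kink-turn of box C/D RNAs, with 23, 50 and 12. Of 9 microRNA processing names 5 were seen and 3 in all replicates. Among the 4 names of 7SK proteins, HEXIM1 and MEPCE had clusters in every replicate. Of 3 Y RNA protein names, TROVE2 and SSB did, although no Y RNA was named. Of 9 RNase P and MRP proteins 8 were seen and 2 in all replicates, and of 3 vault proteins 2 were seen and none in all replicates. Alternative symbols of a protein, such as SNU13 for NHP2L1, count as separate names.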

How the data were processed

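Values were taken from 1 cluster table per replicate, and the members and lists were chosen with earlier results of these data known. The submitters' processing notes name STAR and the build hg19. The authors called edits with SAILOR and clusters with FLARE (windows of 30 bases, merging distance 15, adjusted p-value threshold 0.1). Bases and reads per cluster, edited and in all, are unscaled counts as deposited. The edit fraction deposited by the authors is edited over covered C bases, and it was recomputed from the counts for every cluster. The mean read depth is a coverage signal deposited by the authors without scaling. The score deposited by the authors is a negative binomial cumulative probability. Only clusters past the threshold were analysed, so the read number of each library is not known from them. The paper gives a single sequencing depth for the experiment. Reads in clusters totalled 1637592, 1731304 and 1104249, which limits precision mostly in replicate 3.

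Names were split at commas and all were read. Starts were converted to 1-based positions. Intervals are Wilson 95%, and those of edit fractions treat edited bases on 1 read as independent. Differences between members and others were taken within each replicate and tested with the exact two-sided sign permutation over 3 replicates, whose smallest p is 0.25. The labels name the samples replicates without giving separate cultures, so the spread may be technical. Named genes were those with a locus in all 3 replicates and the 10 with the most edited reads; others are named only in counts of 5 or fewer, as extreme examples of the depth measures or as clusters of small RNA names alone, chosen after their values were seen. RefSeq (GRCh38.p14) gave names, lengths and sequences but no cluster position. Alternatives were a score of at least 0.95, a mean depth of at least 50, at least 2 edited reads, an overlap of 50%, the mean, the sum, log2 depth and leaving out each replicate. First names only, coverage per C base, exonic clusters and clusters with at least 2 gene names were added after the data were seen. Code was tested on simulated data and run in Python 3.11.15 (SciPy 1.17.1, NumPy 2.4.6, pandas 2.3.3; plots by matplotlib 3.10.9).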

Additional observations from a re-analysis of the deposited data

How the results depend on the processing

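Of 50 alternative values for the 6 results beyond named loci, 38 kept their direction, or for shares and counts stayed near the reported value. Several of them changed in size. The 84 values of the 28 named loci without each replicate moved by less than 1 SD. Leaving out 1 replicate cannot move a mean of so few values by 1 SD, so this says nothing about stability. The same limit holds for the share of all clusters and the intron-only share without each replicate, which are among the 38. With a mean depth of at least 50 the members fell to 68.7 clusters per replicate and their share rose to 1.85%, and reading only the first gene name left 44.7 clusters and 0.331%. With at least 2 edited reads the share was 1.08%. The difference in median edit fraction, -0.0576 percentage points as reported, was -0.257 with summed bases. It turned positive with the mean over clusters (0.108 percentage points) and with a mean depth of at least 50 (0.150), and it was -0.379 in exonic clusters; leaving out replicates gave -0.144 to -0.0039. The difference in depth fell from 25.2 to 1.68 reads with coverage per C base and rose to 38.4 with at least 2 edited reads and to 45.9 in exonic clusters. The share found in all replicates was 13.9% with an overlap of 50%, 26.2% with at least 2 edited reads, and 25.8 to 32.6% when only the other two replicates had to match. The cause of these shifts was not tested. Clusters with 1 edited read limit the precision of single edit fractions.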
